A study of Mus musculus with 2 samples.

Results

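The IkB genes encode the inhibitors of NF-kB and their nuclear relatives, and 6 of them are described here: Nfkbia, Nfkbib, Nfkbie, Nfkbiz, Nfkbid and Bcl3. They were taken by symbol, matched to gene identifiers through the transcript names in the deposited tables, and all 6 were found among 55536 annotated genes. Total RNA depleted of ribosomal RNA was sequenced from chromatin of macrophages grown from C57BL/6J mouse bone marrow and treated for 75 min with 100 ng/ml of lipid A, the lipopolysaccharide moiety that Toll-like receptor 4 recognises. The only group has 2 libraries, biological replicates 1 and 2, made from 250 ng and 500 ng of RNA with fragments of 250 to 400 bases. Their donor label is shared, and separate mice are not stated, so the spread between them may be technical. No untreated cells were analysed here, so levels are described and no response to lipid A was measured. An exact test over 2 libraries cannot go below p = 0.5, and none was run. Age and sex of the animals are not given.

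NF-kB dimers are built from the Rel subunits and are held inactive in the cytoplasm by IkB proteins, which cover the dimers with a stack of ankyrin repeats. Stimulation of Toll-like receptor 4 activates the IKK complex, which phosphorylates the inhibitors IkB-alpha (Nfkbia), IkB-beta (Nfkbib) and IkB-epsilon (Nfkbie) and so marks them for ubiquitination and destruction, and NF-kB in turn drives transcription of new inhibitor. The nuclear IkBs, IkB-zeta (Nfkbiz), IkB-NS (Nfkbid) and Bcl-3 (Bcl3), act on chromatin with NF-kB subunits, p50 above all, and raise or lower the output of chosen inflammatory genes in macrophages.

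The sequences upstream of the transcript starts are shown because NF-kB binds DNA sites of a known form, the kB consensus, and several IkB genes are known to be its targets. RefSeq windows (GRCm38.p6) were matched for 5 of the 6 genes, 7 windows in all, and Nfkbiz had no entry. Each window holds the 250 bases before a start, read in the direction of transcription. Both strands were searched for the kB consensus, a motif of 10 bases, and for GGANNTTCC, a motif of 9 bases that can overlap it. The motifs were chosen after the windows had been seen, and capitals mark the matches.
Nfkbia, chr12:55492648-55492897, minus strand: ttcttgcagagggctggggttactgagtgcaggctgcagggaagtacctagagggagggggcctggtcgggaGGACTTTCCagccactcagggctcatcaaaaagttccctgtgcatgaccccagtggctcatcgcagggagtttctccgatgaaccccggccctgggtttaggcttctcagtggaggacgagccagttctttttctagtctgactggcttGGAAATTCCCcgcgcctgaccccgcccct
Nfkbie, chr17:45555450-45555699, plus strand: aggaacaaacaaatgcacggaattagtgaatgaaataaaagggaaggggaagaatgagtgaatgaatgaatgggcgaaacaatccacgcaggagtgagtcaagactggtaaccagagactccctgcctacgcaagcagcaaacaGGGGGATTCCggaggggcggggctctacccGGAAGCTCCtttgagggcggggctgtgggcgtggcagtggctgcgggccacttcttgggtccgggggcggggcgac
Nfkbid, most upstream start, chr7:30421481-30421730, plus strand: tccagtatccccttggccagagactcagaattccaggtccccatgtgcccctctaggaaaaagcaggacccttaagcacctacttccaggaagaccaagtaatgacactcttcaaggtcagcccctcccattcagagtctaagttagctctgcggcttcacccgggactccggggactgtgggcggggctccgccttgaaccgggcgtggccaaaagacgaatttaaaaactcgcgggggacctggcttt
Nfkbid, next start, chr7:30422156-30422405, plus strand: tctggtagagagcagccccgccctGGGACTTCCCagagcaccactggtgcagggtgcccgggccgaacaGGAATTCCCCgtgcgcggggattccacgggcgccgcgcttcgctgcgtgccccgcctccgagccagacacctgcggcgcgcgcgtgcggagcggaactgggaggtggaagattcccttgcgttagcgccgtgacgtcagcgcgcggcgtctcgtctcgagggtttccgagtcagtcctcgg

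The Nfkbia window held a kB consensus match 29 bases before the start, and a GGANNTTCC match overlapped it. A further GGANNTTCC match lay 178 bases before the start of Nfkbia. The Nfkbie window held a kB consensus match at 106 bases and a GGANNTTCC match at 76 bases before the start. Nfkbid differed between its own starts: the window of the most upstream start had neither motif, the window of the next start had 2 kB consensus matches, at 226 and 181 bases, and the window of the third start had neither. The windows of Nfkbib and Bcl3, not printed, had no match to either motif. Among 32851 windows of the same length, 3.90% held a kB consensus match and 3.59% a GGANNTTCC match. G and C made up 54.8% to 70% of the bases in the windows of the IkB genes, beside a median of 52.4% over all windows. The shares with a match were not adjusted for this. A match is only a run of letters, and its absence says nothing about binding elsewhere.

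All 6 genes had a TPM (counts per transcript length, scaled to a fixed total in each library) of 1 or more in both libraries, the level taken here as expressed. They were among the higher protein-coding genes: each lay above at least 82.7% of the 7633 expressed protein-coding genes in either library. The library depth was 21453617 and 29638814 estimated counts on annotated genes. Protein-coding genes took 14.0% of all TPM in replicate 1 and 25.0% in replicate 2, with small nucleolar and Cajal body RNAs taking 45.4% and 39.2%. Genes of the ribosomal DNA locus took 41.6% and 12.7% of counts. A TPM that is higher in replicate 2 therefore moves with a larger protein-coding share, whose part in each difference was not tested. In bulk RNA, fewer cells of a type and less RNA per cell cannot be told apart. Of 10 macrophage markers, 9 were expressed by the first of the 2 deposited quantifications, with summed levels of 310 and 494 TPM, and 10 by the second, with 400 and 688 TPM. Of 26 markers of B, T, NK, dendritic, stromal and endothelial cells, neutrophils and progenitors, 0 were expressed by the first quantification, 7 were listed at 0 in both libraries, among them Cd3e and Cd3g of T cells and Ly6g, Elane and Mpo of neutrophils and progenitors, and the summed level was 3.34 and 5.39 TPM. By the second quantification 4 of the 26 were past 1 TPM in both libraries, with a summed level of 25.3 and 56.4 TPM over the list. They were Cd3d (13.0 and 28.8 TPM), Pecam1 (3.36 and 8.67 TPM), Zbtb46 (1.81 and 4.11 TPM) and Ms4a1 (1.03 and 1.87 TPM), each under 1 TPM in replicate 1 by the first. Their part in the levels of the IkB genes was not tested.

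Nfkbia was the highest of the family on chromatin. Its product, IkB-alpha, is the inhibitor that is destroyed and remade fastest after stimulation. The level of Nfkbia was 253 TPM in replicate 1 and 437 TPM in replicate 2 (345 ± 130, SD, n = 2), from 9242 and 17759 estimated counts. Nfkbia ranked 51st and 48th among expressed protein-coding genes. The gene (ENSMUSG00000021025.8) lies on mm10 chromosome 12, 55489410 to 55492647, on the minus strand, spans 3238 bases and has 2 annotated transcripts.

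Nfkbie, which encodes IkB-epsilon, an inhibitor known for slower feedback than IkB-alpha, was next among the cytoplasmic inhibitors. Its level was 57.3 TPM in replicate 1 and 117 TPM in replicate 2 (87.0 ± 42.0, SD, n = 2), from 4364 and 9311 counts. Replicate 2 was thus 2.04-fold higher in TPM, the widest gap of the 6 genes on that scale. Nfkbie (ENSMUSG00000023947.8) lies on chromosome 17, 45555703 to 45563169, on the plus strand, with 3 transcripts over 7467 bases.

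Nfkbib, which encodes IkB-beta, an inhibitor known for steadier expression, had the lowest level of the 6 in both libraries. It was at 30.0 TPM in replicate 1 and 40.2 TPM in replicate 2 (35.1 ± 7.26, SD, n = 2), from 978 and 1458 counts. Even so, Nfkbib lay above 87.1% and 82.7% of expressed protein-coding genes. The gene (ENSMUSG00000030595.15) lies on chromosome 7, 28758251 to 28767512, on the minus strand, with 3 transcripts over 9262 bases. It was the only member for which the authors' tables give a posterior SD of the estimated count above 0, at 1.33 and 1.11 counts.

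Nfkbiz led the nuclear IkBs. IkB-zeta is known as an inducible coactivator of Il6 and Il12b. The level of Nfkbiz was 95.4 TPM in replicate 1 and 178 TPM in replicate 2 (137 ± 58.4, SD, n = 2). Its 9313 and 17806 counts were close to those of Nfkbia, although its level per length was lower. The gene (ENSMUSG00000035356.17) lies on chromosome 16, 55811375 to 55838899, on the minus strand, and at 27525 bases with 6 transcripts it is the longest of the family.

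Nfkbid was the only member whose TPM was lower in replicate 2. IkB-NS is known to bind p50 and to restrain some cytokine genes. Its level was 53.3 TPM in replicate 1 and 51.1 TPM in replicate 2 (52.2 ± 1.61, SD, n = 2), from 2358 and 2570 counts. The small SD comes beside a shift of the other 5 genes, and the rank of Nfkbid was 524th in replicate 1 and 1035th in replicate 2. The gene (ENSMUSG00000036931.15) lies on chromosome 7, 30421732 to 30428746, on the plus strand, with 4 transcripts over 7015 bases.

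Bcl3 encodes Bcl-3, a partner of p50 and p52 homodimers. Its level was 37.4 TPM in replicate 1 and 64.8 TPM in replicate 2 (51.1 ± 19.4, SD, n = 2). These values rest on 843 and 1546 counts, and the half-width of the deposited credibility interval of its TPM was 8.60% in replicate 1, the widest of the 6 genes. The interval's level is not stated in the tables, and the narrowest was 1.67% for Nfkbia in replicate 2. Bcl3 (ENSMUSG00000053175.17) lies on chromosome 7, 19808462 to 19822770, on the minus strand, with 6 transcripts over 14309 bases.

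**Figure D1:**
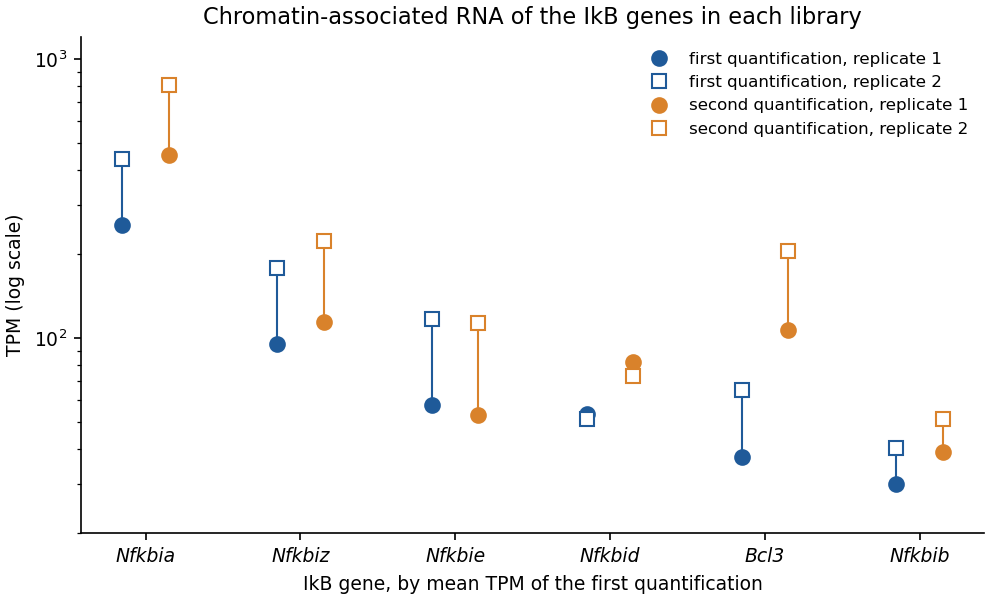
TPM of each IkB gene on a log axis, in replicate 1 (filled circles) and replicate 2 (open squares), for the first quantification (blue) and the second (orange); lines join the 2 libraries. Nfkbia is highest and Nfkbib lowest in all 4 columns of values, Nfkbid is the only gene whose replicate 2 lies below replicate 1, and Bcl3 shifts most between quantifications.

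The authors deposited a second quantification of the same libraries, estimated directly from the reads and an index of annotated transcripts, whereas the first came from an alignment to the transcriptome. Here its TPM was summed over the transcripts of each gene. Nfkbia was at 451 and 808 TPM in the second quantification, Nfkbiz at 114 and 223 TPM, and Nfkbie at 52.7 and 113 TPM. Bcl3 moved furthest: at 106 and 206 TPM it was 2.85-fold and 3.18-fold above the first quantification. Nfkbid was at 82.0 and 72.7 TPM, again lower in replicate 2, and Nfkbib at 39.1 and 51.1 TPM. The ratio of second to first level was 1.78 and 1.85 for Nfkbia, 1.54 and 1.42 for Nfkbid, and near 1 for Nfkbie, at 0.921 and 0.973.

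The order of the family held at the top and the bottom and not in the middle. Nfkbia was 1st, Nfkbiz 2nd and Nfkbib 6th in both libraries by both quantifications. Nfkbia exceeded Nfkbiz by 2.66-fold and 2.46-fold in replicates 1 and 2, and by 3.97-fold and 3.62-fold in the second quantification. Nfkbiz exceeded Nfkbie by 1.67-fold and 1.53-fold, and by 2.15-fold and 1.97-fold in the second. Nfkbie and Nfkbid were not ordered: the ratio was 1.07 in replicate 1 and 2.29 in replicate 2, but 0.643 and 1.56 in the second quantification. Nfkbid and Bcl3 were not ordered either, since Nfkbid was 1.43 times Bcl3 in replicate 1 and 0.788, 0.771 and 0.354 times Bcl3 in the other 3 comparisons. Bcl3 exceeded Nfkbib by 1.25-fold and 1.61-fold, and by 2.72-fold and 4.02-fold in the second quantification.

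Summed by role, chromatin held more RNA of the cytoplasmic inhibitors than of the nuclear IkBs. Nfkbia, Nfkbib and Nfkbie together came to 341 TPM in replicate 1 and 594 TPM in replicate 2. Nfkbiz, Nfkbid and Bcl3 together came to 186 and 294 TPM. The ratio of the sums was 1.83 and 2.02, and 1.80 and 1.94 by the second quantification, so it moved less than the levels themselves. Nfkbia alone made up 48.1% and 49.2% of the summed TPM of the 6 genes, and 53.4% and 54.8% by the second quantification. The direction rests on Nfkbia. Without it the cytoplasmic sum is the lower one in both libraries by both quantifications, since Nfkbie lay below Nfkbiz and Nfkbib below Nfkbid and Bcl3.

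The genes on which the IkBs act and which act on them were also present, and 20 of 22 listed pathway genes were expressed, or 21 by the second quantification. Levels are those of the first quantification unless stated. Rel subunit genes ranged from 22.0 to 331 TPM in replicate 1 and from 41.8 to 619 TPM in replicate 2. Nfkb1, which encodes p105 and its product p50, was at 331 and 619 TPM. Nfkb2, whose precursor p100 can itself act as an inhibitor, was at 214 and 227 TPM. Relb was at 69.8 and 76.2 TPM, Rel at 22.0 and 74.6 TPM, and Rela, which encodes p65, at 31.1 and 41.8 TPM. The 5 subunit genes summed to 668 and 1038 TPM, or 1.96 and 1.75 times the 3 cytoplasmic inhibitors, and 1.42 and 1.28 times by the second quantification. Nfkb1 was 1.31 and 1.42 times Nfkbia by the first quantification and 0.777 and 0.844 times by the second, so which of them is higher depends on the quantification.

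Genes for the kinases and the ligase that remove IkB proteins all lay below Nfkbia and Nfkbiz in both libraries. In the IKK complex, the kinase genes Ikbkb (83.1 and 125 TPM) and Chuk (28.4 and 49.3 TPM) exceeded Ikbkg, which encodes the regulatory subunit NEMO (9.32 and 7.68 TPM). All 5 genes of the ubiquitin ligase that recognises phosphorylated IkB were expressed. They ran from Skp1a at 2.00 and 2.98 TPM to Cul1 at 20.2 and 32.6 TPM, with the recognition subunit genes Fbxw11 at 19.1 and 32.2 TPM and Btrc at 6.70 and 10.8 TPM. By the first quantification all 5 lay below Nfkbib, the lowest IkB gene, whereas in replicate 2 of the second Cul1 (61.4 TPM) and Fbxw11 (60.4 TPM) lay above Nfkbib (51.1 TPM). Tnfaip3, which encodes A20, a ubiquitin-editing inhibitor upstream of IKK, was above every IkB gene at 396 and 897 TPM. The other modulators were low: Nkiras2 was at 2.53 and 5.74 TPM and Nkiras1 at 1.47 and 3.86 TPM, both encoding small Ras-like proteins that bind IkBs, and Commd1 was below 1 TPM in replicate 1, at 0.41 and 1.02 TPM.

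Of the 5 listed genes known to be controlled by nuclear IkBs, 4 were expressed. Tnf was at 186 and 456 TPM, Il12b at 23.3 and 88.1 TPM and Il10 at 23.9 and 80.9 TPM. Il6 was at 1.78 TPM in replicate 1 and 13.7 TPM in replicate 2. Lcn2 was at 0.91 and 1.12 TPM. Apart from Tnf, all lay below Nfkbiz in both libraries.

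**Figure D2:**
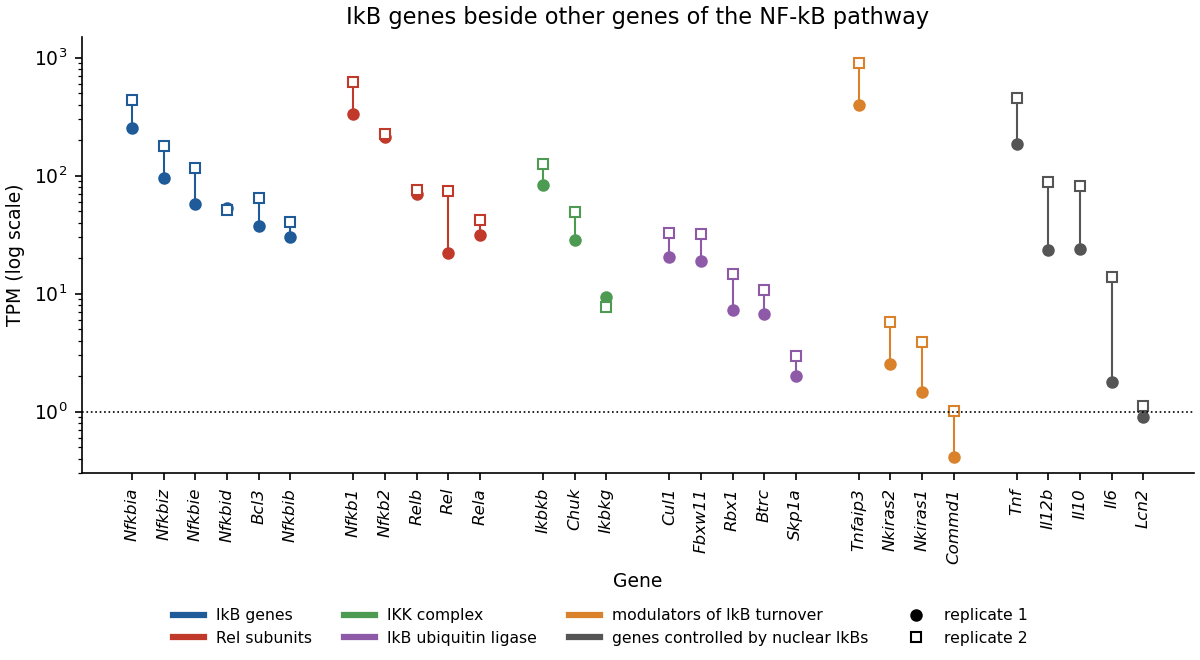
TPM (log axis) of the 6 IkB genes and 22 pathway genes in replicate 1 (filled circles) and replicate 2 (open squares), first quantification, coloured by list; the dotted line marks 1 TPM. Nfkbia lies near Nfkb1, Tnfaip3 is the highest gene shown, and Commd1 and Lcn2 are the lowest in both libraries.

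The libraries were then compared gene by gene on rounded estimated counts. Ratios of replicate 2 over replicate 1 were scaled by TMM, which sets the bulk of genes at a ratio of 1, and carry exact 95% Clopper-Pearson intervals that cover counting error only. Of the 6 members, 0 passed 2-fold, against 14.3% of 14442 genes tested, and the median log2 ratio was −0.17 for the members, 0.01 for all genes tested and −0.12 for expressed protein-coding genes. With DESeq2 size factors 0 members passed it as well (14.3% of genes), as with library size alone (29.7%) and without a filter on low counts (35.5%). Because each side is 1 library of the same group, no p-value applies.

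Nfkbia, Nfkbiz, Nfkbie and Bcl3 kept close to the bulk of protein-coding genes in this comparison. Their log2 ratios were −0.13 (95% interval −0.17 to −0.10) for Nfkbia, −0.14 (−0.18 to −0.10) for Nfkbiz, 0.02 (−0.03 to 0.07) for Nfkbie and −0.20 (−0.32 to −0.08) for Bcl3. The middle 50% of expressed protein-coding genes ran from −0.48 to 0.27. Nfkbib, at −0.50 (−0.62 to −0.38), lay just below that range.

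Nfkbid stood lowest. Its log2 ratio was −0.95 (−1.03 to −0.87), or 0.517-fold, and 5.01% of expressed protein-coding genes had a lower ratio. In the second quantification the log2 ratio of Nfkbid was −1.24 (−1.29 to −1.18), past 2-fold, where 10.9% of 24106 genes were past 2-fold and 5.30% were past it in that direction. Scaled by library size alone it was −0.34, beside a protein-coding median of 0.49. Nfkbid was below that median under each of these scalings, and what else differs between the libraries, RNA input and ribosomal share included, was not tested for a part in it. By TMM, 2 of the 10 macrophage markers were also past 2-fold lower in replicate 2, Csf1r (−1.16) and Itgam (−1.24), and 0 were past 2-fold higher. Over all genes tested by TMM, 5.59% were past 2-fold lower and 8.67% higher. The median log2 ratio of the markers was −0.26, beside −0.12 for expressed protein-coding genes. The part of these marker shifts in the ratio of Nfkbid was not tested. The sign of the members' ratios otherwise depended on the scaling: 5 of 6 ratios were below 0 with TMM, 6 of 6 in the second quantification and 1 of 6 with library size alone.

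Among the pathway genes, 2 of 22 passed 2-fold, both higher in replicate 2, and 0 were lower, beside 8.67% higher and 5.59% lower over all genes tested. Those were Il6, with a log2 ratio of 2.01, and Nkiras1, with 1.11. Nfkb2 (−0.85), Relb (−0.77) and Lcn2 (−0.77) were on the same side as Nfkbid, while Rel (0.79), Il10 (0.80) and Il12b (0.95) were on the other. Lcn2 alone of the genes controlled by nuclear IkBs was on the side of Nfkbid. The median log2 ratio was −0.48 for the Rel subunits, −0.25 for the IKK genes, −0.04 for the ligase genes, 0.30 for the modulators and 0.80 for the genes controlled by nuclear IkBs.

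**Figure D3:**
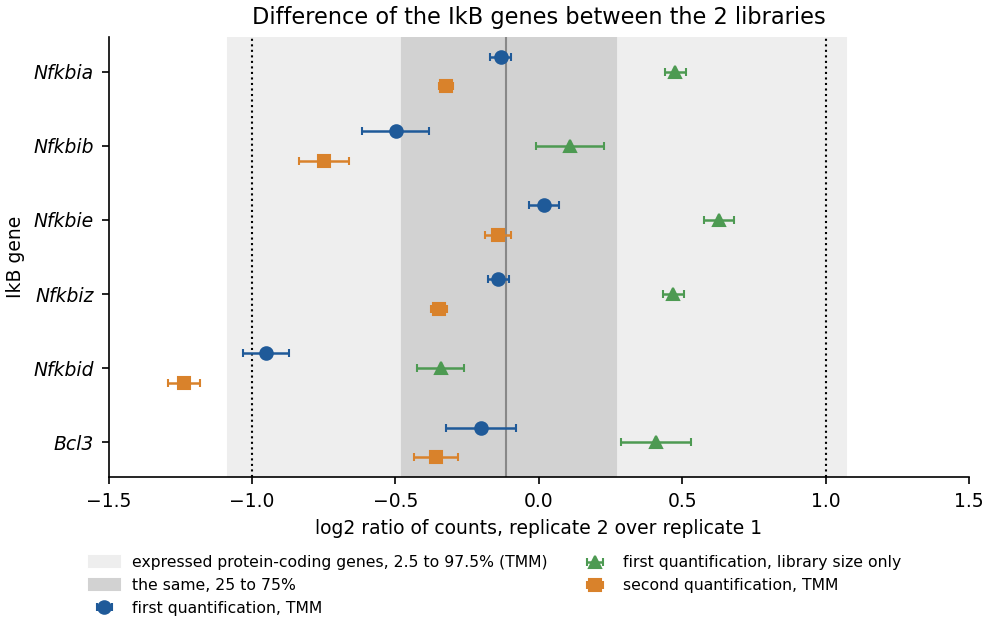
Log2 ratio of counts, replicate 2 over replicate 1, for each IkB gene, with 95% intervals for counting error, by TMM (circles), by library size alone (triangles) and in the second quantification (squares). Shaded bands hold the middle 50% and 95% of expressed protein-coding genes by TMM, the grey line is their median, and dotted lines mark 2-fold; Nfkbid is the leftmost gene in each series.

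The annotated transcripts of each gene were then compared, as the percent of the gene's TPM assigned to each. RNA on chromatin includes transcripts that are still being made or spliced, and some annotated transcripts keep an intron. Both quantifications count only what falls on annotated transcripts. Transcripts labelled as retained intron are annotated for Nfkbia, Nfkbie, Nfkbid and Bcl3. Over 5233 expressed protein-coding genes with such a transcript, the median retained-intron share was 45.9% of TPM, with quartiles of 29.4% and 62.5%.

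Nfkbie and Nfkbid have annotated transcripts that keep a whole intron inside the coding region, and their boundaries are shown because these introns define the retained forms. In Nfkbie-202 it is intron 2 of 5, 610 bases on chromosome 17 from 45558598 to 45559207. In Nfkbid-204 it is intron 7 of 11, 114 bases on chromosome 7 from 30425856 to 30425969, a multiple of 3 in length. Capitals are the 20 flanking exon bases and lower case is the intron, from the GRCm38 genome on the plus strand, whole for Nfkbid and 40 bases from either end for Nfkbie. Each intron begins with gt and ends with ag. No other annotated transcript of either gene contains its intron, so RNA not yet spliced there cannot be told apart from the retained forms.
Nfkbie-202, upstream boundary, chr17:45558578-45558637: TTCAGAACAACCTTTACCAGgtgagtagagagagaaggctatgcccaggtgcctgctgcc
Nfkbie-202, downstream boundary, chr17:45559168-45559227: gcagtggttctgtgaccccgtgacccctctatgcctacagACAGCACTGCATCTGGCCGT
Nfkbid-204, whole intron, chr7:30425836-30425989: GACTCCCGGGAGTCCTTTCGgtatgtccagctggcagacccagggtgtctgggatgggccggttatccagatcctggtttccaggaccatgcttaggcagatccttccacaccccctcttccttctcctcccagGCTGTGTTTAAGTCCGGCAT

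For Nfkbie the transcript annotated with the retained intron took the largest share, which can include RNA not yet spliced at that intron. Nfkbie-202 was at 38.0 and 63.1 TPM and held 66.3% of the gene's TPM in replicate 1 and 54.1% in replicate 2 (60.2% ± 8.64, SD, n = 2). The second quantification gave 60.8% and 51.6%, and estimated counts gave 71.3% and 59.8%. In all of these the share exceeded 50% and was lower in replicate 2. Nfkbie-201, annotated without that intron, took most of the rest, with 30.3% and 43.3%. Of the background genes, 71.6% had a lower retained-intron share than Nfkbie.

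Nfkbia was mostly assigned to its coding transcript. No annotated Nfkbia transcript keeps a whole intron, so these shares do not show how much of the RNA is spliced. Nfkbia-201 held 88.1% and 92.5% of TPM, and the retained-intron transcript Nfkbia-202, which contains only 32 of the 521 bases of intron 1, held 11.9% and 7.53% (9.73% ± 3.11, SD, n = 2). Of the background genes, 6.06% had a lower retained-intron share by the first quantification and 36.9% by the second. The second quantification moved Nfkbia-202 to 38.7% and 33.5%, so its size is not settled by these tables.

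Nfkbid-204 held 19.0% and 13.6% of the TPM of Nfkbid (16.3% ± 3.82, SD, n = 2), with 11.0% of background genes lower. It is a short transcript, and it held 2.87% of the gene's estimated counts. In the second quantification the share was 27.6% and 16.8%. It was lower in replicate 2 in both.

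For Bcl3, the retained-intron transcripts Bcl3-202 and Bcl3-206 held 68.8% and 59.8% of TPM by the first quantification (64.3% ± 6.35, SD, n = 2) and 25.1% and 24.6% by the second. Bcl3-202 contains 320 of the 7533 bases of intron 2, and Bcl3-206 contains 190 of the 705 bases of intron 3, so neither keeps a whole intron. The 2 transcripts of Bcl3 annotated as processed were listed at 0 in both libraries by the first quantification and took 61.2% and 61.7% by the second. The coding transcript Bcl3-201 was at 11.0 and 17.3 TPM by the first quantification and 14.3 and 23.7 TPM by the second, a smaller gap than for the gene.

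**Figure D4:**
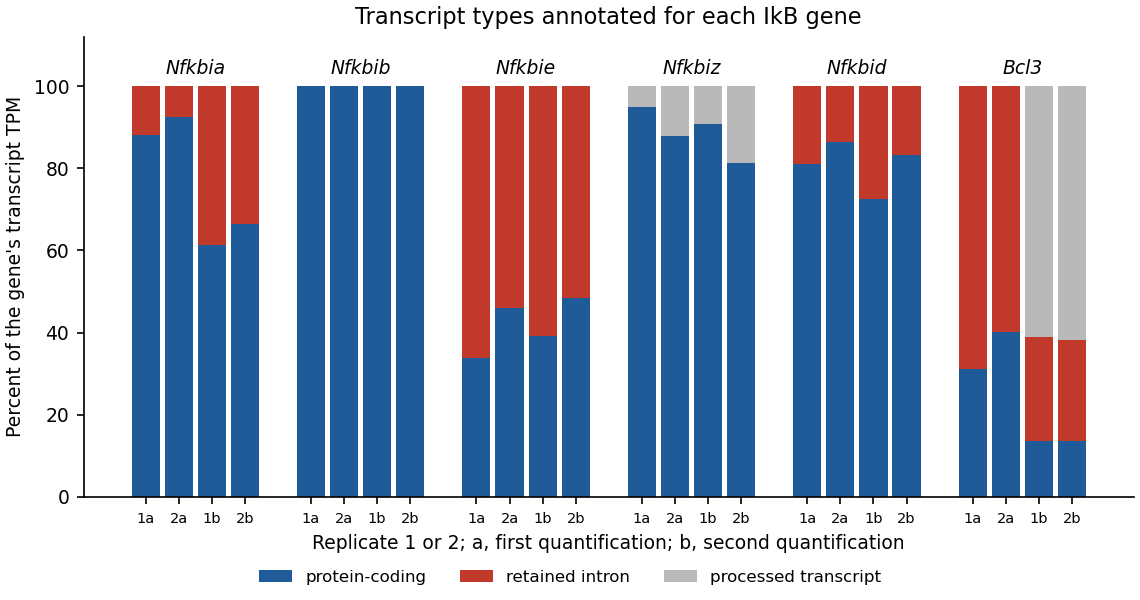
Percent of each gene's transcript TPM on protein-coding (blue), retained-intron (red) and processed (grey) transcripts, in replicates 1 and 2 by the first (a) and second (b) quantification. Nfkbie is above 50% retained intron in every bar, Nfkbib has protein-coding transcripts only, and Bcl3 changes most between quantifications.

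Nfkbiz was led by a transcript annotated from an internal start. Nfkbiz-204 begins at position 55822138 of chromosome 16, 16761 bases downstream of the most upstream start at 55838899. It was at 76.4 and 134 TPM and held 80.0% and 75.2% of the gene's TPM (77.6% ± 3.38, SD, n = 2), and 71.3% and 64.4% by the second quantification. Its annotated coding sequence of 2184 bases is longer than the 1887 bases of Nfkbiz-203, the leading transcript from the upstream start, at 14.0 and 22.4 TPM. Nfkbiz-201, which has the upstream start and the longer coding sequence, was listed at 0 in both libraries. The first exon of Nfkbiz-204, 16761 to 17131 bases from the upstream start, contains an exon of Nfkbiz-201 that begins at 16784. All later exons are shared by the 2 transcripts. Unspliced RNA from the upstream start also covers the added bases, so use of the internal start is not resolved here. The non-coding Nfkbiz-205 has 3 exons and ends within the region upstream of the internal start. It differed most between the libraries, at 4.97 and 21.5 TPM, or 5.21% and 12.1% of the gene, and 9.14% and 18.8% by the second quantification.

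Nfkbid has coding transcripts annotated from 3 starts. Nfkbid-203, from the most upstream start at position 30421732, held 55.4% and 55.5% of the gene's TPM (55.4% ± 0.07, SD, n = 2), and has the longest coding sequence, 1410 bases. Nfkbid-201 starts 1543 bases further on, has 981 coding bases, and held 25.6% and 30.3%. Nfkbid-202 starts 674 bases downstream of Nfkbid-203, next to the window with 2 kB consensus matches printed above. The quantifications disagreed on it: the first listed it at 0 and 0.31 TPM, and the second put it at 24.0 and 27.2 TPM, 29.3% and 37.4% of the gene, with Nfkbid-203 at 25.5% and 25.7%. The use of these starts is therefore not resolved here.

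Nfkbib was mostly on Nfkbib-202, with 87.6% and 84.0% of TPM, and 83.4% and 85.5% by the second quantification. Nfkbib-201 has the same coding length of 1077 bases, ends further downstream at position 28758251, and held the remaining 12.4% and 16.0%. Nfkbib-203 was listed at 0 in both libraries by the first quantification.

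**Figure D5:**
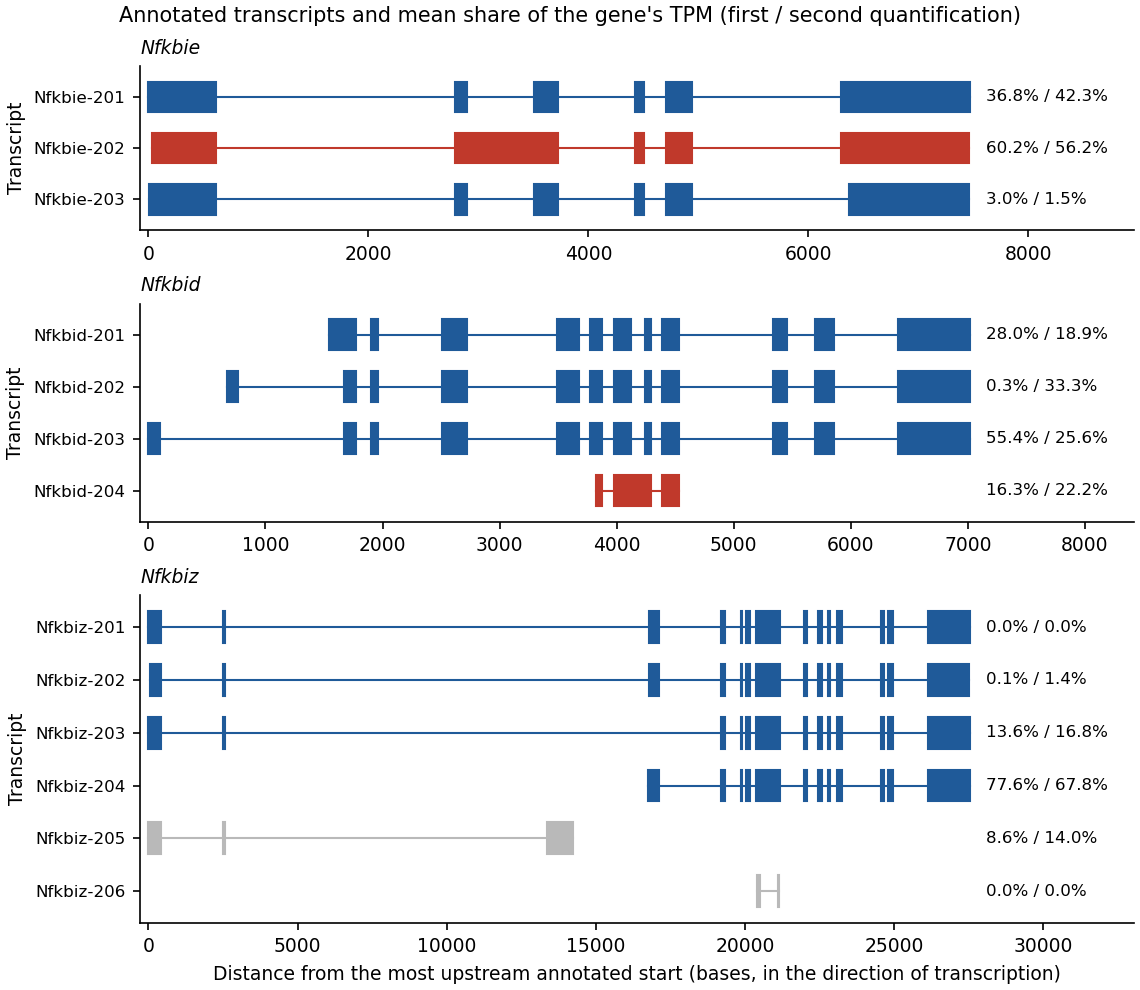
Exon models of the annotated transcripts of Nfkbie, Nfkbid and Nfkbiz, by distance in bases from the most upstream annotated start, with the mean percent of the gene's TPM by the first and second quantification at the right. Blue marks protein-coding, red retained-intron and grey processed transcripts; Nfkbie-202 and Nfkbiz-204 lead their genes in both quantifications, while the leading Nfkbid transcript differs.

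Some members overlap genes on the opposite strand, and the sources used here do not give whether strand entered the counting. Reads of overlapping exons therefore cannot be told apart. Bcl3 overlaps the antisense gene Gm16174 over 2073 bases, all of them in introns of the annotated Bcl3 transcripts. Reads there do not enter the values of Bcl3, and whether reads of Bcl3 RNA entered those of Gm16174 was not tested. Gm16174 was at 9.07 and 9.68 TPM by the first quantification and 53.0 and 114 TPM by the second. A further antisense gene, Gm16175, overlaps 2264 bases of Bcl3 and was at 0.76 and 0.65 TPM by the first quantification, from 1 count in each library, and 9.45 and 28.3 TPM by the second. Both were thus higher in the second quantification, as Bcl3 was. Nfkbib overlaps Sirt2, a deacetylase gene, over 778 bases and Ccer2 over 718 bases. Of the annotated Nfkbib exons, only the first of Nfkbib-203 lies in the Sirt2 overlap, and only the last of Nfkbib-201 reaches the Ccer2 overlap. Sirt2 was expressed at 56.0 and 83.4 TPM with a log2 ratio of −0.32, and Ccer2 was at 0.92 and 0.90 TPM.

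Within 20 kb, the other neighbours expressed by the first quantification had levels below those of the member beside them. Slc35b2 (16.1 and 28.8 TPM) and Hsp90ab1 (35.3 and 43.5 TPM) lie beside Nfkbie. Tyrobp, which encodes the adaptor DAP12, lies beside Nfkbid at 9.54 and 14.1 TPM with a log2 ratio of −0.40. Sars2 lies beside Nfkbib at 1.72 and 2.21 TPM. No neighbour of Nfkbia or Nfkbiz within that distance was expressed by the first quantification. By the second, Gm36634 beside Nfkbia was at 1.92 and 5.26 TPM, Hcst beside Nfkbid at 3.45 and 5.04 TPM, and Ccer2 at 1.63 and 2.00 TPM.

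The expressed protein-coding gene nearest to each member in log2(TPM + 1) over the 2 libraries was also found. It was Srrm2 for Nfkbia (267 and 444 TPM, distance 0.08), Zzef1 for Nfkbib (30.0 and 39.8 TPM, distance 0.02), Gm17334 for Nfkbie (56.6 and 117 TPM, distance 0.02), Pfkp for Nfkbiz (96.4 and 178 TPM, distance 0.01), Dennd4b for Nfkbid (55.2 and 52.6 TPM, distance 0.07) and Clk4 for Bcl3 (37.2 and 64.5 TPM, distance 0.01). With 2 libraries and 7633 genes, a gene this close exists for each of the 6.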

How the data were processed

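The authors deposited, per library, tables of estimated (expected) counts and TPM per gene and per transcript, from an alignment to the transcriptome (mm10, GENCODE M21), per the text deposited with them. A second table of estimated counts and TPM per transcript was made by the authors from the reads and a transcript index. Which tools and versions were used, and whether strand was, is not given in the labels or tables. The tables give no molecular identifiers. Reads in introns outside annotated transcripts do not enter these values.

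The GENCODE M21 annotation gave symbols, transcript types and positions. Rows that name no annotated gene held 0.409% and 0.277% of counts and were left out. Counts were rounded for ratios between the libraries, over genes that reached 20 counts in sum, with TMM factors of 0.810 and 1.24 (edgeR 4.0.16, R 4.3.3) and exact binomial intervals, and 2-fold was called. The depth makes 3 counts equal to 0.140 and 0.101 CPM. The script was tested on simulated data. Alternatives were DESeq2 1.42.0 size factors, library size alone, no count filter, other TPM thresholds (0.1 and 10), TPM ratios with pseudocounts of 1 and 0.1, the second quantification, estimated counts for transcript shares, and each library alone. For transcripts, the shares of single starts and of Nfkbiz-205 were added after seeing the data.

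All 6 members are named, with the listed pathway genes, the expressed genes within 20 kb and 1 nearest gene each. The members and lists were chosen with earlier results of these data known.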

Additional observations from a re-analysis of the deposited data

How the results depend on the processing

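All 6 members stayed expressed under thresholds of 0.1 and 10 TPM, in the second quantification and in either library alone. By the second quantification the mean level moved by more than 1 SD between the libraries for Nfkbia (630 TPM), Nfkbib (45.1 TPM), Nfkbid (77.4 TPM) and Bcl3 (156 TPM). It did not for Nfkbie or Nfkbiz, and the cause was not tested. That SD differs by gene: in replicates 1 and 2 Nfkbiz rose 1.19-fold and 1.25-fold, beside 1.31-fold and 1.27-fold for Nfkbib. With each library left out in turn, levels ran from 253 to 437 TPM for Nfkbia, 30.0 to 40.2 for Nfkbib, 57.3 to 117 for Nfkbie, 95.4 to 178 for Nfkbiz, 51.1 to 53.3 for Nfkbid and 37.4 to 64.8 for Bcl3, and 6 members were expressed. The number of members past 2-fold was 0 with TMM, DESeq2 size factors, library size alone and no count filter, and 1, Nfkbid, in the second quantification, where the cause was not tested. TPM ratios centred on expressed protein-coding genes put Nfkbid at −0.73 and −0.83 with pseudocounts of 1 and 0.1. The share of Bcl3 on retained-intron transcripts was 34.9% by estimated counts, and that of Nfkbia was 3.58%. No paired analysis was possible because the series has 1 group.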
